A study of Bos taurus with 8 samples.

Results

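The BCL2 family genes described here were 10 bovine genes of the mitochondrial death pathway, namely BCL2, BCL2L1, BCL2A1, MCL1, BAX, BAK1, BCL2L11, BAD, BID and BIK. They were found on the array through the RefSeq accessions of its probes. Of the 10, 9 were matched by 18 of the 43653 probes, and no probe was matched to BIK, so it was not analysed here. In the same way 26743 of the probes were named, for 12603 genes. RNA was measured in 8 samples of cultured HanWoo cattle cells, 1 array each. Embryo-derived stem-like cells (eSLCs) were of 3 origins. In vitro produced (IVP) embryos gave I2 (passage 35) and I9 (passage 30), somatic cell nuclear transfer (NT) embryos gave N2 (passage 36) and N7 (passage 30), and parthenogenetic (PA) embryos gave P1 (passage 31) and P4 (passage 36). Somatic cells (SCs) were taken at passages 5 and 10 and are called SC P5 and SC P10. All eSLC lines were kept in 3i medium with the inhibitors PD184352, SU5402 and CHIR99021, on inactivated mouse STO feeder cells. The SCs were kept in serum medium, and the paper states no feeder for them. Cell type, medium and feeder therefore cannot be told apart. Whether RNA of the feeder reached the arrays was not tested. Each line is 1 sample, and the labels do not say whether SC P5 and SC P10 were separate cultures, so p-values measure the spread between these samples.

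Members of the BCL2 family decide whether the outer mitochondrial membrane stays closed. The guardians BCL2, BCL2L1 (BCL-XL), MCL1 and BCL2A1 bind and restrain the pore formers BAX and BAK1. BCL2L11 (BIM), BID, BAD and BIK are BH3-only proteins, which sense stress and engage the guardians or the pore formers. Once the membrane opens, cytochrome c leaves the mitochondrion and caspases are activated.

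Signals are background-subtracted intensities scaled so that the 75th percentile of each array equals 1000. They can be compared between arrays for 1 probe, and not between probes. Between 71.1% and 76.7% of the probes of an array were well above background, and no spot was saturated. The labels were checked on marker genes. Of the 8 fibroblast markers 7 were lower in eSLCs, where 15.7% of all genes tested were. The summed signal of the 8 ran from 3878 to 6897 in the 6 lines against 478300 to 594300 in the SCs. Of the 7 trophectoderm markers tested, GATA2, GATA3, TFAP2C, KRT8 and KRT18 were well above background on all 8 arrays and were higher in eSLCs. CDX2 and PAG2 were higher as well. The summed signal of the 7, CDX2 and PAG2 included, ran from 370300 to 1124000 against 3262 to 4258 in the SCs. Of the 4 pluripotency markers tested LIN28A was higher and SOX2 lower, while POU5F1 and NANOG did not pass. For CDX2, PAG2 and LIN28A neither SC was well above background. These genes entered the test through the eSLC arrays alone, and their calls are not used as support. Neither of the 2 primitive endoderm markers tested passed. N7 stood apart from the other lines on GATA4, a primitive endoderm marker, with 2918 against 23.1 to 179.8. On POU5F1 it gave 898.1 against 30.7 to 100.8.

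Between the 6 eSLC lines and the 2 SCs, BCL2 was about 70-fold lower in eSLCs and BCL2L11 about 4-fold higher, whereas the pore formers and the other BH3-only genes differed by less than 2-fold. These were the 2 members called by limma among the 8 tested, 1 lower and 1 higher, at an adjusted p below 0.05 and a change of at least 2-fold. The same rule called 35.4% of the 10958 genes tested, 19.7% as higher and 15.7% as lower in eSLCs. An adjusted p below 0.05 at any fold was reached by 5 of the 8 members and by 47% of all genes tested. On the brightest probe of 7 of the 8 members the eSLC arrays and the SC arrays did not overlap, which held for 57.6% of all genes tested. The median log2 difference was 0.44 over the 8 members and 0.23 over all genes tested.

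**Figure D1:**
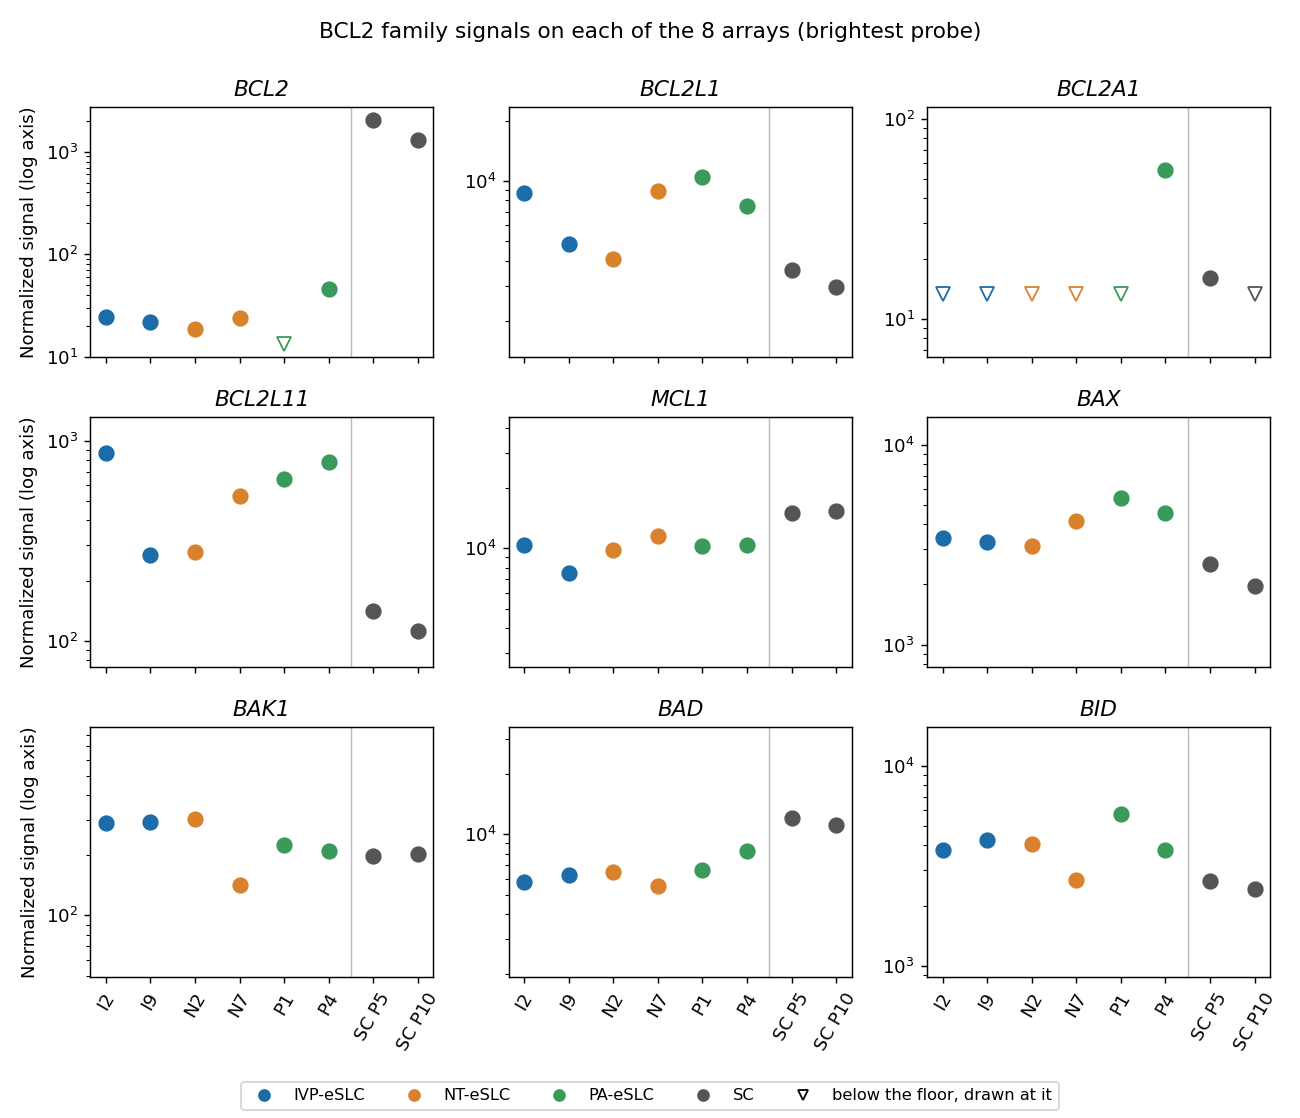
Normalized signal (log axis, 75th percentile of each array = 1000) of the brightest probe of each of the 9 matched members, 1 point per array, coloured by embryo origin or SC. BCL2 lies below 50 in all 6 eSLC lines and above 1000 in both SCs, BCL2L11 is lowest in the SCs, and open triangles mark signals under the floor of 13.28, drawn at the floor.

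Among the guardians, BCL2 (NM_001166486) showed the most distant groups. Its signal was 24.8 in I2, 22 in I9, 18.8 in N2, 24.1 in N7, 9.67 in P1 and 45.7 in P4, while SC P5 gave 2024 and SC P10 gave 1292. All 6 lines were far below both SCs, P4 was the highest line, and the P1 signal was not well above background and was raised to the floor of 13.28 for the test. The log2 difference was -6.13 ± 0.48 (SE; 6 lines against 2 SCs), a level 70.1-fold lower in eSLCs, with a 95% interval from -7.30 to -4.96 and an adjusted p of 2.4e-04 (limma). The difference was -6.42 on the first slide, which held I2, I9, N7 and SC P5, and -5.84 on the second, which held N2, P1, P4 and SC P10. In bulk RNA, fewer cells of a type and less RNA per cell cannot be told apart. Fibroblast markers fell together with BCL2, with 7 of 8 lower where 15.7% of all genes tested were, and their part in the result was not tested. In the series matrix values of the authors the difference was smaller, at -3.12 with an adjusted p of 4.5e-04. With the processed signal column of the scanner files it was -2.65 with an adjusted p of 0.175, and in 6 of the 8 files that column did not follow the background-subtracted signal.

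BCL2L1 (NM_001077486), the guardian that encodes BCL-XL, was higher in eSLCs without passing the threshold. Its brightest probe gave 8678 in I2, 4830 in I9, 4056 in N2, 8893 in N7, 10460 in P1 and 7536 in P4, and 3604 and 2935 in SC P5 and SC P10. All 6 lines were above both SCs, and I9 and N2 were closest to them. The log2 difference was 1.11 ± 0.38 (adjusted p = 0.0566, limma, 95% interval 0.17 to 2.05). The second probe of the gene ran from 118.4 in N2 to 335.9 in P1 with 56.1 and 57.3 in the SCs, and its difference of 1.94 passed with an adjusted p of 0.015. The third probe gave 1.03 with an adjusted p of 0.0748. The direction was the same for all 3 probes. The gene passed in 7 of the 22 alternative analyses. Among them were the mean of its probes (1.36, adjusted p = 0.0317, limma) and the slide as a block (adjusted p = 0.0461, limma). Another was the t-test of the methods judged by its unadjusted p (0.0353), which did not pass after Benjamini-Hochberg adjustment. Without N2 the difference of the brightest probe was 1.30.

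MCL1 (NM_001099206), a short-lived guardian, was lower in eSLCs by its brightest probe and differed little by the others. The brightest probe gave 10400 in I2, 7547 in I9, 9812 in N2, 11530 in N7, 10220 in P1 and 10330 in P4, and 14950 and 15320 in the SCs. Every line was below both SCs on this probe, and I9 was the lowest. Its log2 difference was -0.61 ± 0.18 (adjusted p = 0.0344, limma), under 2-fold. In 13 of 22 alternatives p was below 0.05, the p being adjusted in all alternatives but the unadjusted t-test. The second probe ran from 705.3 to 1440 in eSLCs with 1361 and 1298 in the SCs, and the dimmest from 369.7 to 722.4 with 580.9 and 598.1. On these probes the groups overlapped, with differences of -0.23 (adjusted p = 0.528, limma) and -0.09 (adjusted p = 0.80).

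BCL2A1 (NM_001037100), a guardian known mainly from blood and immune cells, was at or below background in most samples. Its brighter probe was well above background on 3 of the 8 arrays and its dimmer probe on 1, and the gene was not tested. In P4 the probes gave 55.2 and 37.4. Elsewhere the brighter one reached at most 15.9, in SC P5, and the dimmer one at most 8.59, in N2. P4 was therefore the highest on both probes, although 2 eSLC arrays and 1 SC array were well above background on the brighter one. Of the 6 blood and immune markers 5 were tested. Higher in eSLCs were 3 (PTPRC, CD14 and AIF1) and LAPTM5 was lower, where 19.7% and 15.7% of all genes tested were. The summed signal of the 6 ran from 11810 to 31770 in eSLCs and from 3643 to 3875 in the SCs. AIF1 entered the test through the eSLC arrays alone, and LAPTM5 was well above background on 3 of the 8 arrays. CD3E, a T cell marker, was well above background on 2 arrays. The part of these markers in the BCL2A1 signal was not tested.

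**Figure D2:**
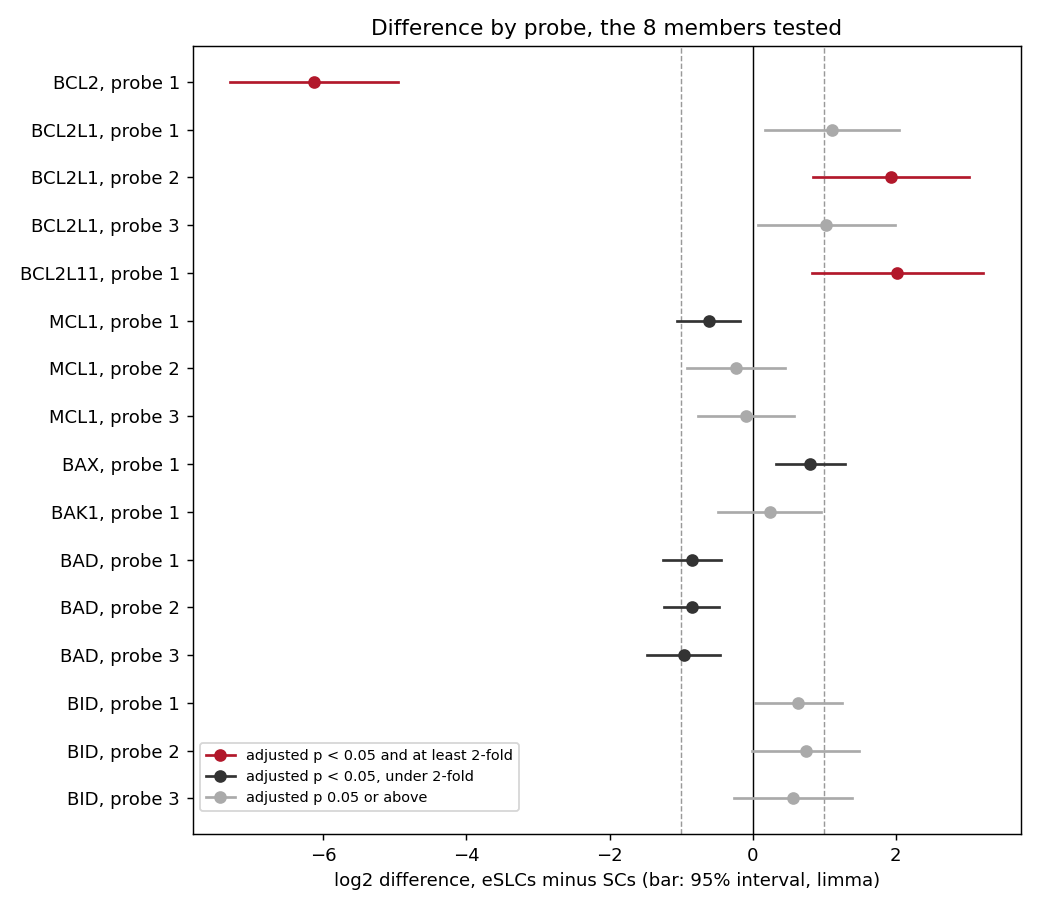
Log2 difference, eSLCs minus SCs, of each of the 16 probes of the 8 members tested, with its 95% interval from limma; probe 1 is the brightest and dashed lines mark 2-fold. Red points passed the adjusted p and the 2-fold threshold, black points the adjusted p alone, and the 3 probes of BAD lie close together while of the 3 probes of MCL1 the brightest alone passed the adjusted p.

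The pore former BAX (NM_173894) was higher in eSLCs by less than 2-fold. Its signal was 3403 in I2, 3261 in I9, 3107 in N2, 4151 in N7, 5417 in P1 and 4558 in P4, and 2539 and 1960 in the SCs. All 6 lines were above both SCs, and the PA lines were the highest. The log2 difference was 0.81 ± 0.20 (adjusted p = 0.0184, limma), or 1.75-fold. It was 0.50 on the first slide and 1.12 on the second, and 0.23 with an adjusted p of 0.803 in the series matrix values.

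BAK1 (NM_001077918), the other pore former, did not pass the test. Its signal was 289.6 in I2, 292.7 in I9, 303.9 in N2, 142.4 in N7, 225.3 in P1 and 209.7 in P4, and 197.4 and 203.8 in the SCs. By the brightest probes it was the only tested member whose groups overlapped, since N7 lay below both SCs and the other lines above them. The log2 difference was 0.24 ± 0.29 (adjusted p = 0.533, limma), with a 95% interval from -0.48 to 0.95. The value rested on the NT lines, being 0.42 without N7 and 0.05 without N2. With the processed signal column the difference was 3.67 (adjusted p = 0.175, limma).

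Among the BH3-only genes, BCL2L11 (NM_001075310), which encodes BIM, was higher in eSLCs. Its signal was 868.6 in I2, 267.0 in I9, 278.1 in N2, 530.9 in N7, 640.8 in P1 and 783.4 in P4, while SC P5 gave 140.1 and SC P10 gave 111.9. Every line was above both SCs, with I9 and N2 lowest, and the lines spanned 3.25-fold. The log2 difference was 2.02 ± 0.49 (adjusted p = 0.0181, limma), or 4.06-fold, with a 95% interval from 0.82 to 3.22. It was 1.83 on the first slide and 2.21 on the second. The difference kept its direction in all 22 alternatives, but the call was lost without P4 (adjusted p = 0.0623), without SC P5 (0.114), without SC P10 (0.149), with both SCs counted as 1 sample (0.128) and with the processed signal column (0.209). The trophectoderm markers GATA2, GATA3, TFAP2C, KRT8 and KRT18 were also higher in eSLCs, and their part in the result was not tested. CDX2 and PAG2 were higher too, but entered the test through the eSLC arrays alone and are not used here.

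BAD (NM_001035459), whose product is held inactive by phosphorylation, was lower in eSLCs on each of its probes. The brightest gave 5750 in I2, 6274 in I9, 6503 in N2, 5539 in N7, 6649 in P1 and 8228 in P4, and 12080 and 11180 in the SCs. All lines were below both SCs, and P4 was the closest to them. The log2 difference was -0.85 ± 0.16 (adjusted p = 0.0080, limma), a level 1.81-fold lower. The other probes gave -0.85 and -0.97, so that the 3 probes of the gene agree within their standard errors while none reached 2-fold. With quantile normalization the difference was -1.07 and passed (adjusted p = 0.0032, limma), and in the series matrix it was -1.34 (adjusted p = 0.0778). Against the SCs, BAD also passed in 5 of 22 alternatives in IVP-eSLCs and in 4 in NT-eSLCs.

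BID (NM_001075446), which links death receptors to the mitochondrion once cleaved by a caspase, was 3803 in I2, 4269 in I9, 4043 in N2, 2669 in N7, 5735 in P1 and 3773 in P4, and 2665 and 2407 in the SCs. N7 was level with SC P5, the other lines were above both SCs, and P1 was the highest. The log2 difference of 0.64 ± 0.25 did not pass (adjusted p = 0.0771, limma), nor did the other probes, at 0.74 and 0.56, and on both of these N7 was not above both SCs.

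The 6 lines differed from each other most in BCL2 (standard deviation 0.59 on the log2 scale, near the floor), BCL2L11 (0.74) and BCL2L1 (0.54), and least in BAD (0.20) and MCL1 (0.21). I9 and N2, of different origin, were the lowest lines in both BCL2L11 and BCL2L1, on every probe of these genes. For BCL2L11 the lines I9 and N2 were 1.09 and 1.15 above the mean of the SCs on the log2 scale, and the other lines 2.08 to 2.79 above it. For BCL2L1 they were 0.57 and 0.32 above it, and the other lines 1.21 to 1.69. The pair was picked out after its values were seen and was not tested. Over all probes the arrays of I9 and N2 had a correlation of 0.994 with each other, where pairs of eSLC lines ranged from 0.947 to 0.994. N7 stood lowest in BAK1, BID and BAD by their brightest probes, while on the second BAD probe I9 was lower (1583 against 1607 in N7). The same line had the highest signals of GATA4 and POU5F1, and the part of these markers was not tested.

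When each embryo origin was compared with the SCs, which were the same 2 arrays in all 3 comparisons, BCL2 was lower in every origin. In IVP-eSLCs 2 members were called, where 32.3% of all genes were called. In NT-eSLCs 1 member was called with 29.8% of all genes, and in PA-eSLCs 3 members with 35.2% of all genes. The BCL2 difference was -6.11 in IVP-eSLCs, -6.25 in NT-eSLCs and -6.04 in PA-eSLCs, with adjusted p between 7.5e-04 and 7.9e-04 (limma). The PA value lay between -6.93 in P1, which was raised to the floor, and -5.145 in P4. With the t-test of the methods and Benjamini-Hochberg adjustment the BCL2 call was lost in NT-eSLCs (adjusted p = 0.0617) and PA-eSLCs (0.0785). BCL2L11 was called in IVP-eSLCs (log2 difference 1.94, adjusted p = 0.0478, limma) and PA-eSLCs (2.50, adjusted p = 0.0198). In NT-eSLCs it had 1.62 with an adjusted p of 0.0853. The IVP value lay between 2.79 in I2 and 1.09 in I9. BAX passed in PA-eSLCs alone, at 1.16 ± 0.24 (adjusted p = 0.0124), beside 0.58 in IVP-eSLCs and 0.69 in NT-eSLCs. In IVP-eSLCs the call of BCL2L11 was lost in 17 of 22 alternatives, the slide as a block among them (adjusted p = 0.128, limma), and the count fell to 1 without N2, N7, P1, P4 or SC P5, each left out alone. In NT-eSLCs the count rose to 2 without I2, I9, N2 or SC P10. In PA-eSLCs it fell to 1 without SC P10, BAX no longer passed without P1 (adjusted p = 0.0648, limma), and BCL2L11 no longer passed without P1 (0.0829), P4 (0.111) or SC P5 (0.103). With the slide as a block BCL2L1 passed in PA-eSLCs (1.81, adjusted p = 0.0377, limma), where it had 1.45 with an adjusted p of 0.0513.

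**Figure D3:**
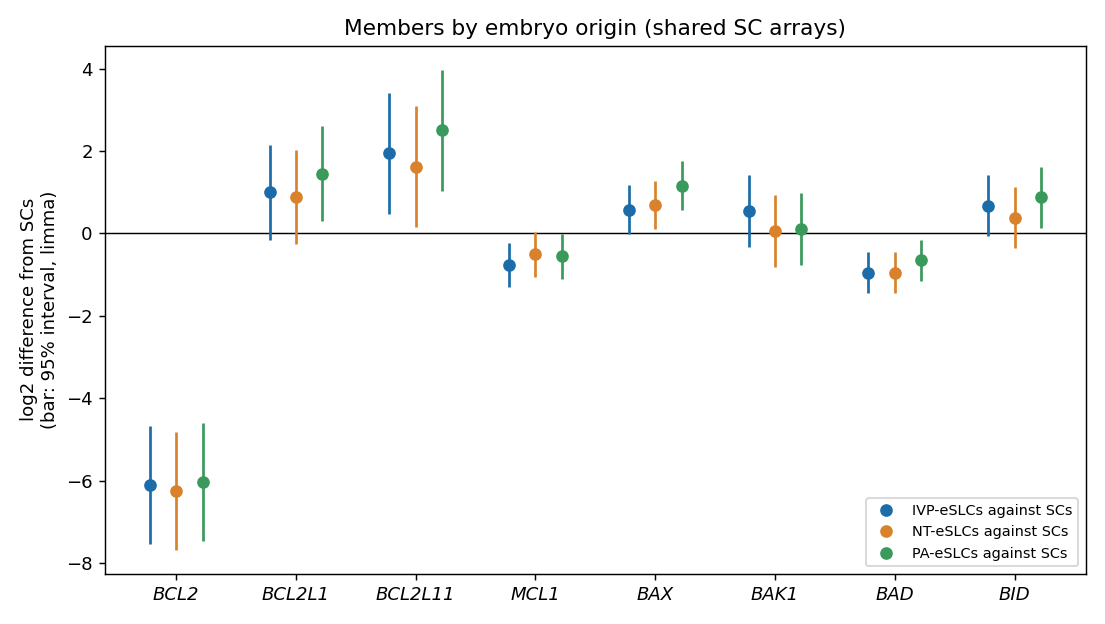
Log2 difference from the SCs of the 8 members tested, for IVP-, NT- and PA-eSLCs (2 lines each), with 95% intervals from limma. BCL2 lies near -6 in every origin, the intervals of the origins overlap for every member, and the 3 comparisons share the SC arrays.

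The origins were also set against each other, to see whether the embryo source moved these genes. No gene was called by limma between NT- and IVP-eSLCs (0% of those tested) or between PA- and IVP-eSLCs (0%). The NT and IVP groups each held a line of the closest eSLC pair, N2 and I9 (correlation 0.994). At an unadjusted p under 0.05, 306 and 568 genes differed, of which 0 and 0 were members. The t-test of the methods gave 0 and 2 members (BAX and BAK1, PA against IVP) at that level, and 0 after Benjamini-Hochberg adjustment. BAX had the lowest p of a member (0.0537 in limma, adjusted p = 0.852), with a PA minus IVP difference of 0.58 and a 95% interval from -0.01 to 1.17. For BCL2 the intervals ran from -1.56 to 1.30 (NT minus IVP) and from -1.35 to 1.51 (PA minus IVP), both wider than 2-fold in either direction with 2 lines each. Both IVP arrays were on 1 slide and both PA arrays on the other, whereas NT and SC had an array on each, so the slide could be entered as a block. With the block the PA minus IVP difference was 0.97 ± 0.27 for BAX (95% interval 0.27 to 1.67, unadjusted p = 0.0162, adjusted p = 0.934, limma), -0.99 ± 0.42 for BAK1 (adjusted p = 0.934) and 1.17 ± 0.57 for BCL2L1 (adjusted p = 0.934), where the values without it were 0.58, -0.42 and 0.46. For BCL2L11 the block moved the difference from 0.56 to 1.19 ± 0.84 (adjusted p = 0.934, limma), and for BCL2 from 0.08 to 0.58 ± 0.85 (adjusted p = 0.94). No gene was called with the block in this comparison (0 called, with 259 at an unadjusted p under 0.05, of which 1 was a member) or between NT and IVP (0 called, 393 and 0).

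Beyond the 10 members, 13 further genes of the family had been listed, of which 8 were named and tested. BCL2L14, BOK and BNIP3 were higher in eSLCs, and BCL2L2 and BCL2L12 lower, which makes 5 of 8 called where 35.4% of all genes tested were called. BCL2L2, which encodes the guardian BCL-W, gave 255.1 to 1033 in eSLCs and 1876 and 1960 in the SCs, a log2 difference of -1.99 ± 0.36 (adjusted p = 0.0063, limma). Like BCL2 it was lower in every line than in both SCs. BOK, a relative of BAX and BAK1, gave 11470 in N7 to 31860 in P1 against 3306 and 3310 in the SCs, with a difference of 2.54 ± 0.49 (adjusted p = 0.0080). BCL2L14 ranged from 333.8 in N7 to 3724 in I9 and was 10.0 and 18.7 in the SCs, with a difference of 6.28 ± 1.16 (adjusted p = 0.0067), the lower SC value having been raised to the floor. BNIP3, a mitochondrial protein induced in low oxygen, ran from 4404 in I9 to 46760 in P1 with 2747 and 2452 in the SCs (log2 difference 2.10 ± 0.63, adjusted p = 0.0377). BCL2L12 was 2.12-fold lower. BCL2L15, BMF and BNIP3L did not pass. The call of BNIP3 was kept in 9 of 22 alternatives and lost with the slide as a block (adjusted p = 0.0606). The 5 calls fell to 1 without SC P5, to 0 without SC P10 and to 0 with both counted as 1 sample.

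The 6 lists of the apoptosis pathway held 55 genes, 47 of them tested, and 11 were higher and 5 lower in eSLCs, 31 not passing. Over all genes tested the same rule called 19.7% as higher and 15.7% as lower. Their median log2 difference was 0.18, beside 0.23 for all genes tested. The 16 calls fell to 10 without P4, and to 9 without SC P5 or without SC P10. Besides the genes that the naming rule picked, AIFM1, CYCS, CASP8, CASP9, BIRC5, FADD, CFLAR, TNFRSF1A, TNFRSF25, TRADD, AKT1 and FBXW7 are given for their roles, and were chosen after their values were seen.

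Downstream of the mitochondrion, 3 of 9 genes of the release and apoptosome list were higher and none lower, where 19.7% of all genes tested were higher. APAF1, the scaffold of the apoptosome, ran from 256.5 to 419.5 in eSLCs with 125.1 and 161.3 in the SCs (log2 difference 1.26 ± 0.23, adjusted p = 0.0063, limma). VDAC2, a channel of the outer membrane, was 2.74-fold and AIFM1, a mitochondrial oxidoreductase, 2.07-fold higher, and the call of AIFM1 was kept in 6 of 22 alternatives and lost with the slide as a block (adjusted p = 0.0566). CYCS, cytochrome c, gave 0.89 with an adjusted p of 0.101. Of the 4 caspases of the list that were tested, the executioner CASP6 was called, and was higher, where 35.4% of all genes were called. It gave 6166 to 9541 in eSLCs against 1002 and 1116 in the SCs (7.77-fold, adjusted p = 1.7e-04). The initiators CASP8 and CASP9 gave -1.84 (adjusted p = 0.0617) and -0.97 (adjusted p = 0.0444). XIAP, which blocks caspases, was the 1 of 4 inhibitors of apoptosis that was called, where 35.4% of all genes were. It was 2.20-fold lower in eSLCs (adjusted p = 0.0217, limma), and BIRC5 gave 0.85 with an adjusted p of 0.0183. Calls were kept in 21 of 22 alternatives for VDAC2 and CASP6, in 19 for APAF1 and in 15 for XIAP.

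In the death receptor list 4 of 9 genes were higher and 2 lower, beside 19.7% and 15.7% of all genes tested. The median log2 difference of the list was -1.19, and TNFRSF1A, TNFRSF25 and TRADD, which did not pass, gave -1.70, -1.56 and -1.19 (adjusted p = 0.233, 0.0757 and 0.0808, limma). TNFRSF21, a receptor with a death domain, ran from 18730 to 39470 against 1277 and 1792 in the SCs (17.6-fold, adjusted p = 2.8e-04, limma). FADD, the adaptor of death receptors, was 2.27-fold and CFLAR, an inhibitor of CASP8, 2.08-fold higher. FAS was 3.45-fold lower, with 128.5 in I2 to 704.1 in N7 and 1099 and 981 in the SCs, and the kinase RIPK1 was 2.82-fold lower. FASLG was not well above background in either SC. It entered the test through the eSLC arrays alone, and both SCs were raised to the floor, so its call, which is among the 4 and was lost with no filter (adjusted p = 0.0569, limma), is given as a count and supports nothing. That call was lost in 10 of 20 alternatives. With both SCs at the floor, the brightest FASLG probe was 3.56-fold higher in eSLCs (log2 difference 1.83). With each SC set instead at the lowest signal well above background of its own array, it was 5.69-fold higher. The fold thus depended on the value given to the SCs. The log2 difference was 0.68 with the mean of the probes of the gene and 0.57 with normexp (adjusted p = 0.207). The calls of CFLAR and FAS were kept in 5 and 9 of 22 alternatives, and that of FAS was lost with the slide as a block (adjusted p = 0.0559). Those of TNFRSF21 and FADD were kept in 21 and 20. That of RIPK1 was kept in 18 and lost without SC P5 (adjusted p = 0.0897), without I9 and N2 (0.0577), with the SCs as 1 sample (0.066) and with the processed signal (0.259).

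In the list of PERP, MDM2 and related genes 1 of 6 genes tested was higher and 1 lower, where 19.7% and 15.7% of all genes tested were. PERP, a membrane protein of desmosomes, ran from 9713 to 13750 in eSLCs against 247.9 and 154.6 in the SCs (57.4-fold, adjusted p = 2.4e-05, limma). TP53INP1 was 2.00-fold lower (adjusted p = 0.0255). Of 15 tested proteins that act on BAD, BIM or MCL1, 2 were higher and 1 lower, where 35.4% of all genes tested were called in either direction. The kinases PIM2 and RPS6KA1, which can phosphorylate BAD, were 14.4-fold (adjusted p = 1.1e-04) and 11.6-fold (adjusted p = 3.7e-04) higher. PIM2 gave 815.3 to 1389 in eSLCs and 72.1 and 85.3 in the SCs. MAPK8, a stress kinase that phosphorylates BIM, was 2.10-fold lower (adjusted p = 0.0076). AKT1 gave -0.72 (adjusted p = 0.0275) and FBXW7, a ubiquitin ligase subunit for MCL1, 0.73 (adjusted p = 0.015), both under 2-fold. PERP and PIM2 were called in all 22 alternatives, RPS6KA1 in 21, MAPK8 in 18 and TP53INP1 in 11.

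**Figure D4:**
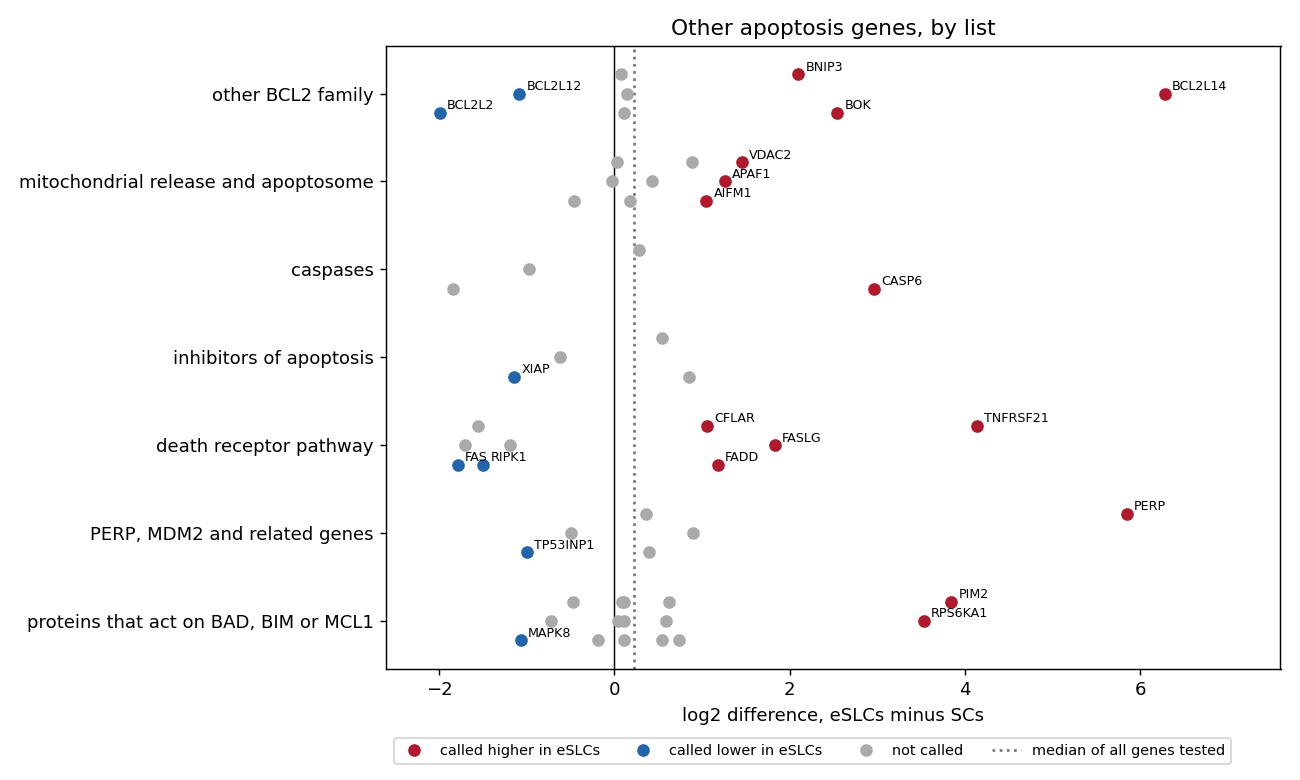
Log2 difference, eSLCs minus SCs, of the tested genes of the further BCL2 family list and of the 6 pathway lists, 1 point per gene, with called genes named and the median of all genes tested as a dotted line. Points spread to both sides of zero in most lists, with BCL2L14 and PERP farthest to the right.

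The genes whose pattern over the 8 arrays came closest to a member were found by the root mean square distance of log2 signals after centring each gene. Like differences between eSLCs and SCs follow from that choice and give no support. For BCL2 the eSLC signals lay near the floor. Nearest to BCL2 were TRPS1 (0.38), FYN (0.41) and TWIST2 (0.44), whose differences were -6.23, -6.16 and -5.99. TRPS1 and TWIST2 are transcription factors and FYN is a kinase of the SRC family. Nearest to BCL2L11 were SPTY2D1 (0.18), MFSD11 (0.19) and FZD7 (0.23), the last a WNT receptor, with differences of 1.95, 1.88 and 2.11.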

How the data were processed

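Total RNA was amplified, labelled with Cy3 and hybridised to 8 one-colour Agilent bovine 44K arrays. The authors quantified the scans with Feature Extraction (version 11.5.1.1, per the file headers) and deposited spot intensities, and a series matrix of normalized intensities whose scale is not stated. The background-subtracted intensity was the main measure. Outlier spots (1 to 11 per array) were left out and spots of a probe averaged. Each array was scaled to its 75th percentile (set at 1000), floored at 13.28 and log2-transformed. Probes were named through RefSeq accessions (26743 probes), and a gene stood for its brightest probe. Of the 4 conditions (IVP, NT, PA and SC), a gene had to exceed background clearly on all arrays of 1 or more to be tested, with limma 3.58.1 in R 4.3.3. eSLCs were the mean of the 3 origins. The rule for naming took all members, the called genes of the further family list, the 2 largest called rises and falls of each pathway list and the 3 nearest genes of each called member. Some genes of the lists are not reported here. Members and lists were chosen with earlier results of these data known. On simulated data 69% of 200 genes changed 4-fold were recovered in the comparison of eSLCs with SCs. The number of arrays limits the precision. Alternatives covered scaling, background, filters, the block of slides and each left-out array. The t-test of the methods was also among them, with and without adjustment, and without it calls were made on the unadjusted p.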

Additional observations from a re-analysis of the deposited data

Results flagged for a closer look

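BCL2A1 was above the floor of 13.28 in line P4 alone among the eSLC lines, on both probes. The other 5 lines had been raised to the floor, so the ratio of the gap of P4 to the range of the 6 lines was 1 on the brighter probe and 1 on the dimmer by construction, and gives no support for P4 as an outlier. The unfloored signals were 55.2 and 37.4 in P4, and at most 12.0 and 8.59 in the other lines. The probes were well above background on 3 and 1 of the 8 arrays. The probes share a gene and an array, and no replicate array of P4 was used here.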

How the results depend on the processing

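In the comparison of eSLCs with SCs all 8 members tested kept their direction in every one of the 22 alternatives that gave a value, and BCL2 gave none when genes had to be well above background on all 8 arrays. The 2 members called became 0 with the processed signal column and 1 with the SCs as 1 sample, and ranged from 1 to 3 when single arrays were left out (of which 1 without P4, SC P5 or SC P10). In IVP-eSLCs the 2 became 1 with the filter on all 8 arrays, no filter, normexp, a fit of the conditions compared alone, the SCs as 1 sample, the slide as a block and the t-test of the methods with or without adjustment, and 0 with the processed signal, and ranged from 1 to 3. In NT-eSLCs the 1 became 0 with the filter on all 8 arrays, the processed signal and the adjusted t-test, 2 with quantile normalization and 3 without I9 and N2, and ranged from 1 to 2. In PA-eSLCs the 3 became 0 with the processed signal and 1 with the adjusted t-test, and ranged from 1 to 4. Between origins the counts stayed at 0 (0 to 0). The further family genes went from 5 to 1 with the processed signal and 0 with the SCs as 1 sample (0 to 5 over single arrays), and the pathway genes from 16 to 3 and 9 (9 to 17). Signs turned for BAK1 in NT-eSLCs without N2 and without I9 and N2 (-0.49 each, with a range of -0.49 to 0.60 over single arrays), for BAK1 in PA-eSLCs with the slide as a block (-0.17), for BAX in IVP-eSLCs in the series matrix (-0.32), for BID in IVP-eSLCs (-0.42 processed, -0.059 matrix) and NT-eSLCs (-0.15 and -0.21), and with the processed signal for RPS6KA1 (-0.27) and XIAP (0.19). Between origins the slide block turned the NT minus IVP differences of BCL2 (from -0.13 to 0.12) and BCL2L1 (from -0.11 to 0.25). It also turned the PA minus IVP difference of BID (from 0.21 to -0.018). The cause of these turns was not tested.

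The processed signal had a rank correlation of 0.161 to 0.216 with the background-subtracted signal in 6 arrays and 0.971 and 0.973 in N2 and I2. In the series matrix 21.4% of probes had SC P5 and SC P10 within 1% of each other, among them 6 of the 18 member probes. Quantile normalization moved the median of all genes from 0.23 to 0.12 and the series matrix to 0.07. Normexp was run on the median signal of the spots. With 1 SC array left out, the remaining one is assumed to vary like the other conditions. On each array the lowest clearly detected signal lay 75.3- to 136-fold under the 75th percentile, which limits what can be read for BCL2 in eSLCs and BCL2A1. No paired analysis was possible because the labels call every sample replicate 1, and the numbers within groups used here follow accession order and pair no samples. The slide, which the arrays of different groups share, was used as a block instead. Using another probe of a member was added after seeing the data, and the second BCL2L1 probe then passed.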
